A study of Oryza sativa Japonica Group with 8 samples.

Results

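Class III peroxidases are secreted haem enzymes of plants that use hydrogen peroxide to oxidise phenolic compounds. They act in lignin polymerisation and in the cross-linking of cell wall components, and they can also produce reactive oxygen species. Rice carries them as a large family with several runs of neighbouring copies, and members of the family are known to be induced in leaves by pathogen attack and wounding. The 7 loci described here, from Os07g0676900 to Os07g0677600, are such a run on chromosome 7. They were chosen by locus identifier, and their probes are the non-control probes whose name starts with one of these identifiers, 14 of the 42477 probes on the array. Probe names in the files carry a locus identifier and an accession and say nothing of the product, so the family name comes from general knowledge of these loci. The reference annotation holds 0 of the 7 identifiers, and lists 3 genes with the synonym peroxidase within a stretch of 4 consecutive genes on chromosome 7.

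Rice plants of the Japonica cultivar Hinohikari were compared after treatment with 10 µM linalool, a volatile monoterpene alcohol, and without it. All plants were at the five-leaf stage, the tissue was the fifth-leaf blade, and RNA was taken 24 h after the start. Each group held 4 arrays, each of a separate pool of at least 3 plants and called a biological replicate in the design text. The control is called mock-treated in the descriptions and untreated in the source names, and is called mock here. No gene was altered in either group.

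Levels are given as log2 of the background-corrected signal relative to the 75th percentile of the same array. That percentile was 850 to 1000 signal units in mock and 1092 to 1605 after linalool, and 73.3% to 77.3% of spots were well above background. All 7 leaf blade markers, genes of photosynthesis fixed as a list, were well above background on every array, with a summed linear level of 2780 to 3320 in mock and 486 to 886 after linalool, and all 7 fell. Of 3 root markers 1 was above background in both groups, and its list summed to 0.229 to 0.415 in mock and 0.514 to 0.621 after linalool. Of 3 dividing-cell markers 2 were above background in both groups (0.903 to 1.07 in mock, 0.983 to 1.05 after linalool). These 2 went opposite ways, Os03g0727000 with a difference of -0.89 and Os02g0805200 with 0.23. Of 3 secondary wall markers 0 were above background, so their sums are near-background signal (0.014 to 0.0239 in mock, 0.004 to 0.00862 after linalool). The part of these differences in the results below was not tested. Each group was hybridised on a slide of its own, and an effect of the slide cannot be told apart from that of linalool. Mock replicate 2 stood apart from the other mock arrays for 1 locus of the cluster, as described below, and correlated with the other mock arrays at 0.982 to 0.992 over all tested probes.

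The comparison asks which peroxidase genes of the cluster differ in leaves after 24 h of linalool. Os07g0677200 differed most, with signals 30.6-fold to 36.1-fold higher after linalool. Os07g0676900 rose 2.46-fold, Os07g0677400 fell 1.52-fold relative to the array's 75th percentile, and 2 loci, Os07g0677100 and Os07g0677600, did not pass. The remaining 2 loci, Os07g0677300 and Os07g0677500, were too close to background to be tested. Of the 11 member probes tested, 7 were higher and 1 was lower at a limma adjusted p below 0.05, but 6 of the 7 belong to Os07g0677200. Over the whole array 67.3% of 33120 tested probes passed, 28.4% higher and 38.9% lower, so a pass by itself is common in these data. By locus, 3 of the 5 tested passed, against 67.4% of all tested loci. The groups did not overlap for 8 of the 11 member probes (72.7%), against 63.2% of all tested probes. All 6 probes of Os07g0677200 are among the 8. By locus the groups did not overlap for 3 of the 5 tested (60%), against 63.3% of all tested loci. Scaled instead to 6 spike-in probes, which moved the median of all probes up by 0.79, the higher share of all calls went from 42.2% to 81.8%, and 10 member probes were higher and 0 lower. In a bulk tissue a change in the share of a cell type and a change of RNA per cell cannot be told apart.

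**Figure D1:**
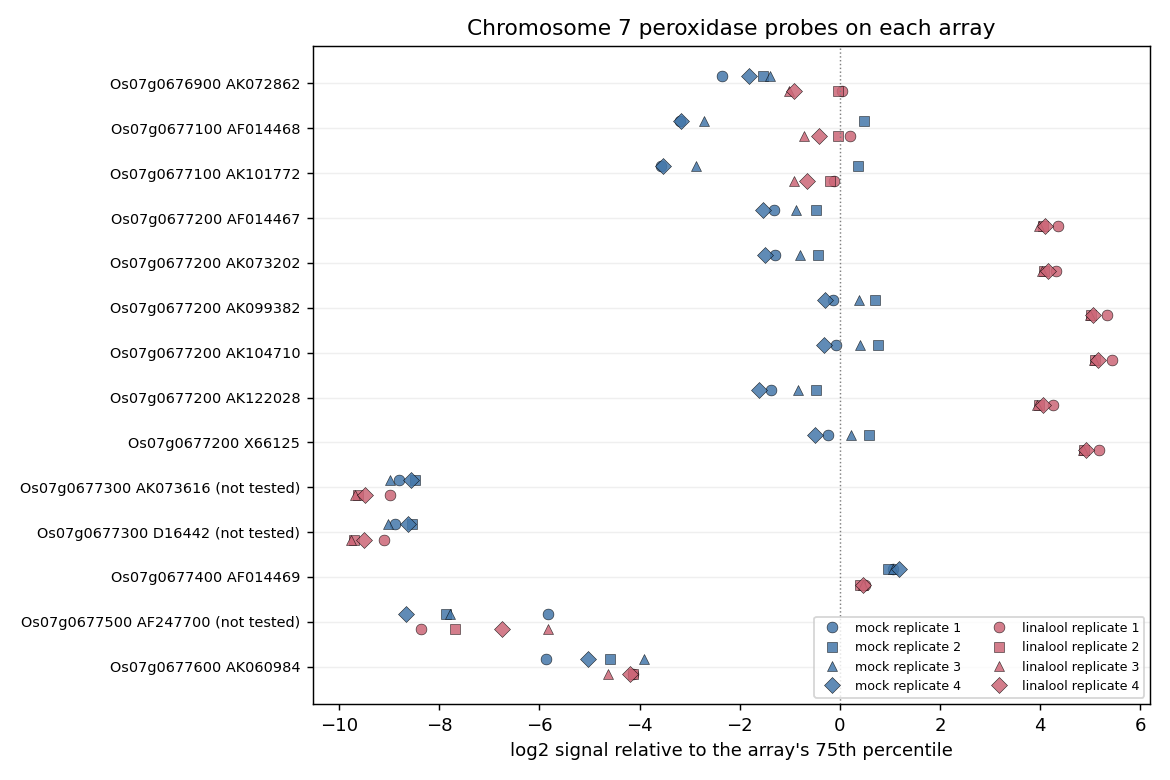
Log2 signal of each of the 14 member probes relative to the array's 75th percentile (horizontal axis), one point per array, mock in blue and linalool in red, with the symbol giving the replicate number. All 6 probes of Os07g0677200 sit at or below 0.77 in mock and between 3.94 and 5.44 after linalool, while mock replicate 2 lies above every linalool array for both probes of Os07g0677100.

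Os07g0677200 was represented by 6 probes. On the probe with the highest mean level, AK104710, the mock arrays read -0.08, 0.77, 0.40 and -0.31 and the linalool arrays 5.44, 5.09, 5.08 and 5.15. The groups did not overlap, and the spread within each was small beside the gap between them, with 0.20 ± 0.49 in mock and 5.19 ± 0.17 after linalool (SD, n = 4 each). The difference was 5.0 on the log2 scale (SE 0.23, 95% interval 4.47 to 5.52, limma adjusted p = 1.16e-06), which is 31.9-fold. In unscaled signal the same probe ran from 804 to 1451 in mock and from 47516 to 54355 after linalool, and no spot on any array was saturated.

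The other 5 probes of Os07g0677200 gave the same picture. Differences over the 6 probes ran from 4.94 to 5.17, with limma adjusted p between 8.38e-07 and 1.24e-06. Once each probe was centred on its own mean, the 6 probes lay within 0.16 of each other on every array. The spots stand apart on the array, in rows 110 to 489 of 532. The files assign the probes AK099382 and AK104710 to one transcript of the locus (Os07t0677200-01) and AF014467, AK073202, AK122028 and X66125 to another (Os07t0677200-02). The first 2 differed by 4.94 and 5.0 and the other 4 by 4.94 to 5.17. Probes assigned to each transcript thus rose by about as much. Whether a probe detects only its assigned transcript was not tested. Averaged over the 6 probes, the mock arrays read -0.74, 0.11, -0.25 and -0.96, with replicate 2 highest and replicate 4 lowest, and the linalool arrays 4.82, 4.52, 4.48 and 4.57. Between 0.637% and 0.74% of all tested probes rose more than these 6.

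Os07g0676900, the first locus of the run by number, has 1 probe. Its mock arrays read -2.36, -1.54, -1.39 and -1.82, and its linalool arrays 0.04, -0.04, -1.01 and -0.92. All linalool arrays lay above all mock arrays, and linalool replicates 1 and 2 were about 1 log2 unit above replicates 3 and 4. The level went from -1.78 ± 0.43 to -0.48 ± 0.56 (SD, n = 4 each), a rise of 1.30 (SE 0.31, 95% interval 0.59 to 2.01, limma adjusted p = 0.00561). The call was lost with normexp background correction (offset 50), where the difference was 0.95 (limma adjusted p = 0.0677). Calls were fewer over the whole array with that correction, at 28.4% of tested probes against 67.3% in the main setting.

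Os07g0677100 has 2 probes that moved together, within 0.13 of each other on every array after centring. On AF014468 the mock arrays read -3.19, 0.49, -2.72 and -3.17 and the linalool arrays 0.21, -0.03, -0.72 and -0.41. Mock replicate 2 was thus above every linalool array, while the other 3 mock arrays were well below all of them. The second probe, AK101772, showed the same array apart, at 0.36 against -3.57, -2.88 and -3.53 in mock, and linalool arrays at -0.12, -0.20, -0.92 and -0.65. With all arrays the differences were 1.91 (SE 0.78, limma adjusted p = 0.0578) and 1.93 (SE 0.82, limma adjusted p = 0.0652), and neither passed. Scaled to the spike-in probes both passed, at 2.70 (limma adjusted p = 0.00233) and 2.72 (limma adjusted p = 0.00304), and AF014468 also passed with an intensity trend in the variance (limma adjusted p = 0.0492). Without mock replicate 2 they were 2.79 (limma adjusted p = 8.65e-05) and 2.85 (limma adjusted p = 9.66e-05), and both passed, which brought the member probes higher to 9.

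Mock replicate 2 was the highest mock array for 8 of the 11 tested member probes, namely those of Os07g0677100 and Os07g0677200. These are 2 of the 5 tested loci, and the probes of each moved together, so the 8 are not separate readings. Over all tested probes mock replicate 2 was the highest mock array for 18.4%, and a share by locus was not computed. It exceeded every other mock array by more than 3 log2 units for 27 probes, 2 of which are the probes of Os07g0677100. For Os07g0677200 its excess was small beside the change, and without it the AK104710 difference was 5.19.

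Os07g0677400 had the tightest replicates of the cluster. Its mock arrays read 1.06, 0.95, 1.06 and 1.18 and its linalool arrays 0.51, 0.41, 0.46 and 0.46, with no overlap. The level went from 1.06 ± 0.09 to 0.46 ± 0.04 (SD, n = 4 each), a fall of 0.60 (a difference of -0.60, SE 0.08, 95% interval -0.78 to -0.43, limma adjusted p = 0.000188). The direction depends on the scaling, since quantile normalisation also gave a difference of -0.57 but spike-in scaling did not give a fall. Unscaled, the signal was 1647 to 2268 in mock and 1558 to 2210 after linalool, so the groups overlapped, and scaled to the spike-in probes the difference was 0.19 (limma adjusted p = 0.357). The median of all tested probes was -0.12 in the main scaling.

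Os07g0677600, the last locus of the run, was dim but well above background on all arrays. Its mock arrays read -5.86, -4.59, -3.92 and -5.02, and its linalool arrays -4.13, -4.13, -4.63 and -4.20. The linalool values fell inside the wide mock range, and the difference of 0.57 did not pass (SE 0.37, 95% interval -0.27 to 1.42, limma adjusted p = 0.198). It passed without mock replicate 3 (0.88, limma adjusted p = 0.0318) and with spike-in scaling (1.36, limma adjusted p = 0.0025), and was 0.24 without mock replicate 1. Unscaled signals were 15 to 57 in mock and 62 to 88 after linalool.

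Neither probe of Os07g0677300 was well above background on any of the 8 arrays, so no direction can be given for this locus. Probe D16442 carries a transcript identifier that names no locus. The levels ran from -9.03 to -8.49 in mock and from -9.76 to -8.99 after linalool, which is 2 to 3 signal units. Os07g0677500 was well above background on 1 mock array, replicate 1, and on 2 linalool arrays, replicates 3 and 4. Its mock arrays read -5.82, -7.86, -7.79 and -8.67 and its linalool arrays -8.37, -7.69, -5.82 and -6.74. The groups overlapped over nearly their whole range, and the locus was not tested.

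The 5 tested loci were set against each other in 10 pairs, by the per-array difference of their brightest probes. The change of Os07g0677200 was larger than that of Os07g0677600 by 4.42 (95% interval 3.58 to 5.26) and than that of Os07g0677400 by 5.60 (4.88 to 6.32). The change of Os07g0676900 minus that of Os07g0677200 was -3.70 (95% interval -4.46 to -2.94), and that of Os07g0677100 minus that of Os07g0677200 was -3.09 (-4.82 to -1.36). In each of these 4 pairs the two-sided exact permutation p was 0.0286, the smallest that 4 arrays against 4 can give, and 0.0571 after adjustment over the 10 pairs. Os07g0676900 against Os07g0677400, with a difference of 1.90 (1.01 to 2.79), gave the same values. Of the 10 pairs 0 passed after adjustment, while 5 had an unadjusted exact p below 0.05. A pair at the smallest exact p can pass after adjustment only where at least 6 pairs reach it. With quantile normalisation 6 pairs passed. The change of Os07g0676900 minus that of Os07g0677100 was -0.61, with an interval of -2.61 to 1.39 (exact p = 0.6). Without mock replicate 2 it was -1.41, with an exact p of 0.0571, the smallest that 3 arrays against 4 can give.

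**Figure D2:**
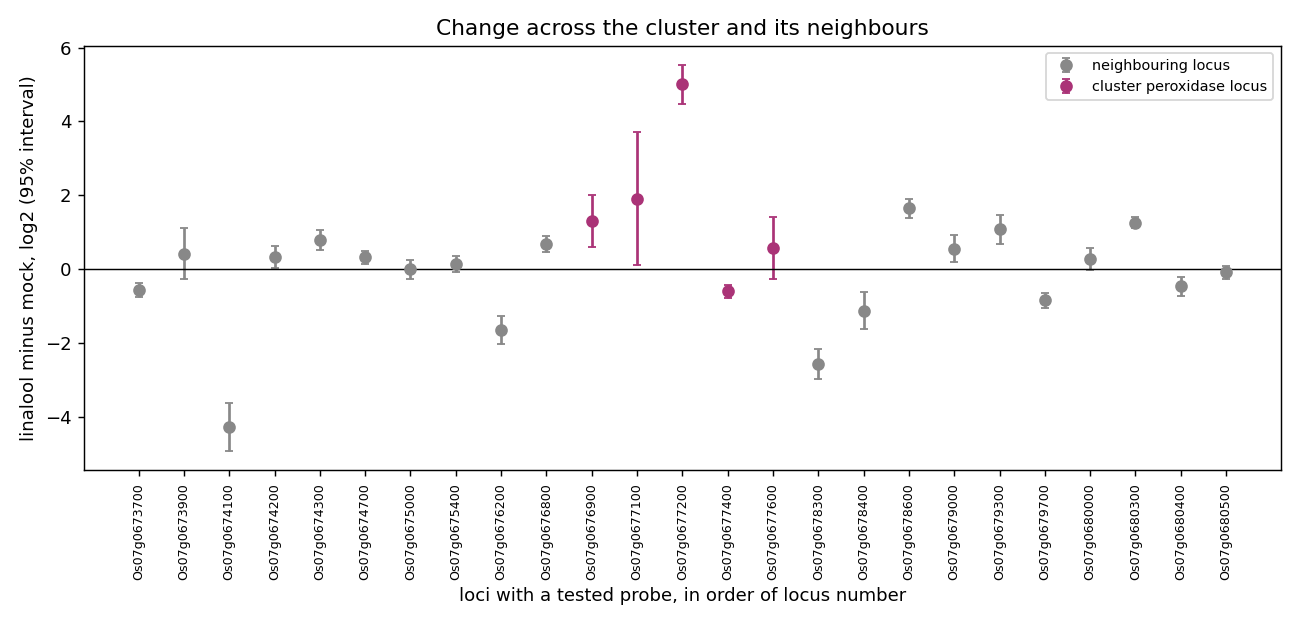
Linalool minus mock difference on the log2 scale with its 95% interval from limma (vertical axis) for the 5 tested cluster loci, in purple, and the 10 tested loci on each side, in grey, in order of locus number. Os07g0677200 stands at 5.0, and the neighbours range from -4.28 to 1.65.

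Neighbouring loci on chromosome 7 went both ways. Of the 10 tested loci with the nearest lower and the 10 with the nearest higher locus numbers, 7 were higher, 7 were lower and 6 did not pass, against 28.9% higher and 38.5% lower of all 21540 tested loci. Their median difference was 0.21, beside -0.10 for all tested loci and 1.30 for the 5 cluster loci. Scaled to the spike-in probes 13 neighbouring loci were higher and 3 lower, and with quantile normalisation 10 and 6. This balance of directions thus depends on the scaling. No other locus with a tested probe lies between Os07g0676900 and Os07g0677600. The nearest on the lower side, Os07g0676800, rose by 0.68 (limma adjusted p = 0.000347) and the next, Os07g0676200, fell by 1.65 (limma adjusted p = 5.71e-05). On the other side the nearest tested loci, Os07g0678300 and Os07g0678400, fell by 2.58 (limma adjusted p = 8.64e-06) and by 1.13 (limma adjusted p = 0.00209). The largest neighbouring rise was that of Os07g0678600, at 1.65 (limma adjusted p = 7.61e-06). The largest fall was that of Os07g0674100, which fell by 4.28 (limma adjusted p = 6.88e-06).

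In the rest of the class III family more loci fell than rose. The list holds 120 loci recalled from general knowledge, of which 113 have a probe and 51 have a tested one. Of these 51, 16 rose (31.4%), 26 fell (51%) and 9 did not pass. Their median difference was -0.51, and they ranged from -8.93 to 4.81. The groups did not overlap for 37 of them (72.5%), against 63.3% of all tested loci. Scaled to the spike-in probes 22 rose and 11 fell, so the balance of directions in the family depends on the scaling. Of the other 62 loci with a probe, 59 were not above background on enough arrays to be tested and 3 had only probes with conflicting locus names.

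**Figure D3:**
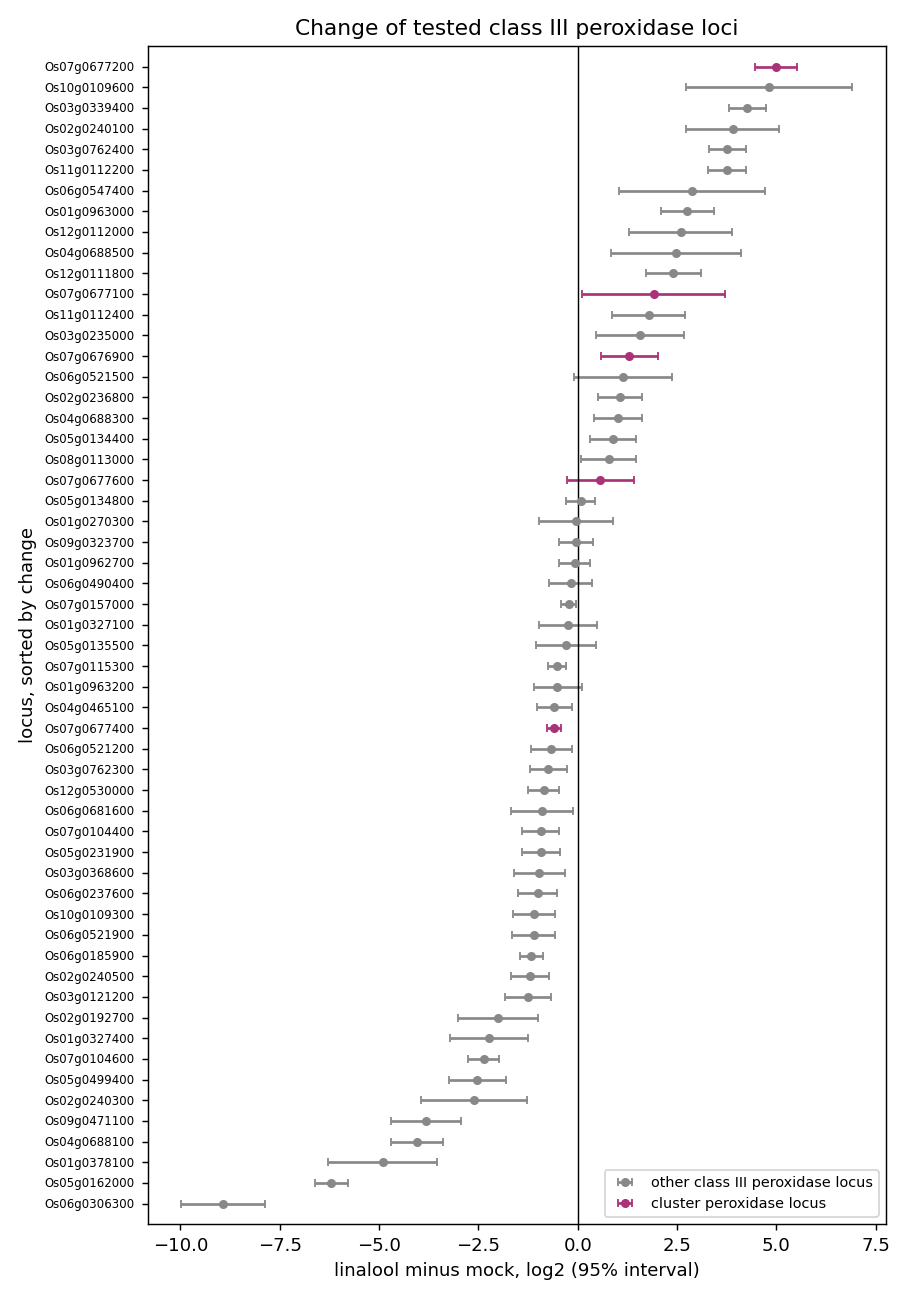
Linalool minus mock difference on the log2 scale with its 95% interval from limma (horizontal axis) for the 56 tested class III peroxidase loci, sorted by change, with the 5 cluster loci in purple. Os07g0677200 is at the top at 5.0, next to Os10g0109600 at 4.81 with an interval that spans it, and Os06g0306300 is at the bottom at -8.93.

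Among the 56 tested loci of the family, Os07g0677200 had the largest measured rise. The next was Os10g0109600, whose rise of 4.81 had a wide interval of 2.72 to 6.91, and mock signals well above background on 2 arrays (limma adjusted p = 0.00172). The intervals overlap, and the difference between these loci was not tested. Os03g0339400 rose by 4.27 and Os03g0762400 by 3.76, with mock signals near background that were well above it on 2 and 3 of the 4 arrays. Os02g0240100 rose by 3.90 and Os01g0963000 by 2.75, both above background on all arrays, while Os11g0112200, not well above background on any mock array, was at least 2.87-fold higher.

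The largest falls in the family included 3 loci that were above background in mock and not well above it after linalool. Os06g0306300 was at least 161-fold lower, Os05g0162000 at least 20.7-fold lower and Os01g0378100 at least 7.72-fold lower. In each bound the dim group was set, per array, to the higher of the probe's own signal and the lowest signal of any spot well above background. Os04g0688100 fell by 4.04 (limma adjusted p = 8.8e-06), Os09g0471100 by 3.81 (limma adjusted p = 5.46e-05) and Os02g0240300 by 2.60 (limma adjusted p = 0.00416).

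In the main scaling, mixed directions within a run of neighbouring peroxidase loci were also seen outside the cluster. The only fall in the cluster, that of Os07g0677400, was not seen with spike-in scaling. The runs outside the cluster were counted in the main scaling only, so their directions may depend on it too. On chromosome 2, Os02g0240100 rose while the other 2 tested loci up to Os02g0240500 fell, with differences from -2.60 to 3.90. On chromosome 4, 2 of 3 tested loci from Os04g0688100 to Os04g0688500 rose and 1 fell, with differences from -4.04 to 2.48. In the runs from Os01g0962700 to Os01g0963200 and from Os05g0134400 to Os05g0135500, 1 of 3 tested loci rose in each and the other 2 did not pass. From Os06g0521200 to Os06g0521900, 2 of 3 fell and 1 did not pass. Such neighbours can be similar in sequence, and how far their probes cross-hybridise was not tested.

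The probes whose profile over the 8 arrays was most like that of each tested locus were found by the root mean square difference between profiles centred on their own means. For Os07g0677200 these were Os06g0647400, at 0.23 log2 units with a difference between groups of 4.83, and both probes of Os10g0530900, at 0.249 and 0.263. For Os07g0676900 they were Os02g0157300 (0.108), Os01g0969700 (0.119) and Os06g0681000 (0.135). In all 3, linalool replicates 1 and 2 were above replicates 3 and 4, which the choice by likeness also favours. The closest profiles to Os07g0677100 were less alike, with Os09g0272600 at 0.415, Os03g0277600 at 0.428 and Os12g0123500 at 0.443. Their highest mock value was on replicate 2, which the choice by likeness favours, as in Os09g0272600 with -1.36 against -4.24, -3.85 and -4.43. Os07g0677400 had the smallest root mean square differences, with Os06g0669700 at 0.043 and Os02g0474500 and Os03g0821900 at 0.045. The measure is not scaled to the size of a locus's change, which was -0.60 for Os07g0677400. Os07g0677600 was most like Os05g0188300 (0.178), Os03g0348900 (0.19) and Os05g0149300 (0.195).

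**Figure D4:**
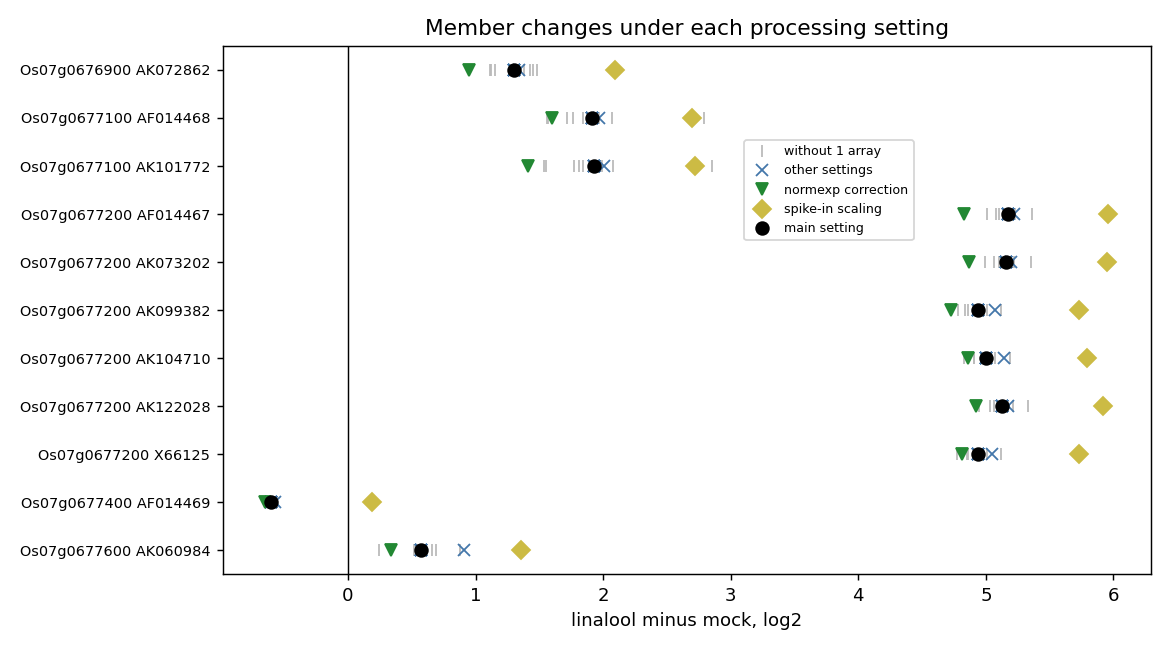
Linalool minus mock difference on the log2 scale (horizontal axis) of each tested member probe under the main setting (black) and each alternative, with grey ticks for runs without 1 array. The 6 probes of Os07g0677200 stay between 4.73 and 5.96, and Os07g0677400 is the only member probe that crosses 0, with spike-in scaling.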

How the data were processed

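Per the labels' protocols, total RNA was labelled with Cy3 and hybridised to single-colour Agilent rice arrays. The deposited intensity is the background-corrected processed signal of Feature Extraction 10.7.3.1, per the file headers, with no scaling between arrays. The authors' series matrix holds the same intensity times 1 constant per array, 1.37 to 2.51, by a rule not given in the sources used here, with column medians of 298.9 to 339.8.

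Here log2 signal was taken relative to each array's 75th percentile, spots called non-uniform (4 to 17 on an array) were dropped and repeat spots averaged. Probes well above background on at least 4 of 8 arrays entered a limma fit (lmFit and eBayes, limma 3.58.1, R 4.3.3) with Benjamini-Hochberg adjustment over 33120 probes, tested on simulated data. Each locus took the tested probe of highest mean level, and 1353 probes with conflicting locus names were left out. Precision is limited by the number of arrays. Pairs of loci were compared by exact permutation.

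All member probes were named, with the 6 largest rises and falls in the rest of the family whose groups did not overlap, the nearest 2 neighbours on each side, the extreme neighbours and the 3 most alike profiles. Members and lists were chosen with earlier results of these data known. Alternatives covered background correction, scaling, filter, variance model, replicate block and left-out arrays. The files hold no mean signal, so normexp used the median signal.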

Additional observations from a re-analysis of the deposited data

Results flagged for a closer look

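Of 28 groups of 4 arrays examined for the member probes, 2 held an array far from the other 3, where chance flags about 1 in 20 groups. For probe AF014468 of Os07g0677100, mock replicate 2 read 0.49 against -3.19 to -2.72 on the other mock arrays, and the gap was 0.874 of the group's range. For Os07g0677600, linalool replicate 3 read -4.63 against -4.20 to -4.13, a gap of 0.852 of the range.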

How the results depend on the processing

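Over 176 recomputed differences of the 11 tested member probes, 166 kept their direction and their side of the threshold. The filter, variance-model and block settings leave the difference itself unchanged, so no direction could change there. The series matrix differs by a constant per array, which the scaling removes, so its results could hardly differ. The count also takes the 6 probes of Os07g0677200, which moved together, as separate. All 6 probes of Os07g0677200 passed under each of their 16 alternatives. The one reversal was Os07g0677400, at 0.19 with spike-in scaling, against -0.60. The member count was 7 with normexp correction and 10 with spike-in scaling. With normexp correction 9403 of all probes, 17 family loci and 8 neighbouring loci passed, and the cause was not tested. Requiring a 2-fold difference left 9869 probes and 7 neighbouring loci. Without the filter on dim probes 83 of 110 family loci passed, 16 higher and 67 lower, more probes near background being tested. With the filter 16 were higher and 26 lower. The lowest level of any spot well above background was -6.77 to -6.32 on mock arrays and -7.60 to -6.98 on linalool arrays. Signal near background thus sits lower after linalool in this scaling, and its part in the added lower calls was not tested. Over all 42477 probes 65.3% passed without the filter. With quantile normalisation 6 pairs passed, against 0. Without 1 array at a time, 20501 to 22445 of all probes, 8 to 10 member probes, 37 to 41 family loci, 14 to 15 neighbouring loci and 0 pairs passed, though with 3 arrays against 4 no pair can pass. The median of all probes moved by 0.13 with normexp and with quantile normalisation, by -0.17 with no filter and by 0.79 with spike-in scaling. No clear pairing by replicate number was seen. Deviations of same-numbered arrays correlated at 0, 0.17, 0.11 and -0.11, and 2 of 8 arrays correlated best with their own number. Weak correlations cannot show that the arrays were unpaired. With the replicate number as a block, 21245 of all probes and 9 member probes passed, the added one being AF014468 of Os07g0677100 (1.91, limma adjusted p = 0.0496). The pairs of loci were not refitted with the block. Signal near background limits Os07g0677300 and Os07g0677500.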
